A study of Mus musculus with 8 samples.

Results

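The sarcomere is the contractile unit of striated muscle. Myosin thick filaments slide along actin thin filaments, troponin and tropomyosin gate that sliding with calcium, the Z-disc anchors the thin filaments at each end, the M-band crosslinks the thick filaments in the middle, and titin spans the space between Z-disc and M-band. The 50 genes described here encode these proteins, together with the chaperones and ubiquitin ligases that build and turn over myofibrils. They were taken by name from a fixed list, with 1 row per symbol (the row with the largest total), and all 50 were found among 22869 symbols. In the embryonic mouse heart many of them are transcribed in cardiomyocytes, which switch between isoforms by chamber and by stage. The list also holds genes best known from skeletal muscle and genes that other cells transcribe. The atrioventricular (AV) cushions are swellings of the AV canal that hold endocardial and mesenchymal cells and that lie on a sleeve of AV canal muscle.

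RNA of C57BL/6 mouse embryos at embryonic day E12.5 was sequenced as ribosome-depleted total RNA in 4 groups of 2 libraries. The groups were mutant AV cushion, wild type (WT) AV cushion, mutant ventricle and WT ventricle. The mutant genotype is labelled NfatC1+/-; KLF2fl/fl, and the labels do not say whether +/- marks a lost Nfatc1 copy or an Nfatc1 allele that carries a recombinase. The controls carry the label wild type, and KLF2 fl/fl mice are named in the design text. Klf2, which encodes a flow-responsive transcription factor of endothelial cells, had 1.96 and 0.651 CPM in mutant cushions against 17.3 and 12.9 CPM in WT cushions, and 0.735 and 0.625 CPM in mutant ventricles against 11.7 and 9.19 CPM in WT ventricles. Nfatc1, which encodes a transcription factor of the endocardium, had 24.9 and 15.2 CPM in mutant cushions against 35.9 and 22.1 CPM in WT cushions, and 17.4 and 6.83 CPM in mutant ventricles against 18.5 and 7.87 CPM in WT ventricles. CPM are counts scaled to library size, with trimmed mean of M-values (TMM) factors, and a pair of values always gives replicate 1 and then replicate 2.

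Library totals lay between 18955733 and 26579215 counts, and 14940 symbols passed the filter on low counts. Of the 50 genes 49 were tested. Tnnc2, the troponin C gene of fast skeletal muscle, was not, with 0 and 15 counts in mutant cushions, 1 and 7 in WT cushions, 3 and 7 in mutant ventricles and 1 and 2 in WT ventricles. Tests are edgeR quasi-likelihood tests with Benjamini-Hochberg adjustment over all 14940 symbols, a gene is called at an adjusted p under 0.05, and fold changes are log2 values with their standard error (SE). Nothing in the labels ties the 2 libraries of a group to different embryos or litters, and the p-values therefore cover only the spread among these libraries, which may be technical. Because same-numbered libraries deviated together, a second fit with the replicate number as a block is given where it changes a call or moves a count by over 1.5 times.

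The tissue labels were set against marker genes. All 6 AV canal genes on a list of such markers (Tbx2, Tbx3, Bmp2, Msx2, Cacna1g and Rspo3) were called higher in cushions in both genotypes, and their summed level was 259 to 316 CPM in the cushion libraries against 18.1 to 40.2 CPM in the ventricle libraries. Cushions still held muscle: the 50 genes took 4.62% and 4.93% of counts in mutant cushions, 6.00% and 4.90% in WT cushions, 10.2% and 6.70% in mutant ventricles, and 11.1% and 6.19% in WT ventricles. Replicate 2 of the mutant cushion was unlike the other cushions. On the first principal component it lay at -22.8, while the other 3 cushions lay between -54.9 and -46.3. Its 10 skeletal muscle markers summed to 46.5 CPM, against 5.69 to 14.1 CPM in the other 7 libraries, led by the embryonic myosin gene Myh3 with 27.5 CPM. Myod1, Myf5 and Pax7, which define the skeletal muscle lineage, were at or under 0.174 CPM in every library.

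Promoters of 4 of the genes are shown because their genes moved together or apart in the comparisons that follow: Myl3 was called lower in cushions, Actc1 was called lower and Myl7 higher there by some of the fits, and Ttn differed most between replicates. Each run covers 250 bases before and 50 bases after the RefSeq start (GRCm38.p6), 5′ to 3′ on the strand of the gene. Capitals mark a CArG box, the binding motif of serum response factor, an M-CAT motif (GGAATG or, on the other strand, CATTCC), bound by TEAD factors, a MEF2 motif, or TATAAA.
Myl3 (chr9:110763428-110763727, plus strand): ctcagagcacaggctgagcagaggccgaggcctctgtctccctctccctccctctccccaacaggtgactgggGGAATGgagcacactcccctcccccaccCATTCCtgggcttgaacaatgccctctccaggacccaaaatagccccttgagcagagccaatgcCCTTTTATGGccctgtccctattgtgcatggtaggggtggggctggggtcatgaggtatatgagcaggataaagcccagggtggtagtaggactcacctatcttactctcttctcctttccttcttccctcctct
Actc1 (chr2:114052826-114053125, minus strand): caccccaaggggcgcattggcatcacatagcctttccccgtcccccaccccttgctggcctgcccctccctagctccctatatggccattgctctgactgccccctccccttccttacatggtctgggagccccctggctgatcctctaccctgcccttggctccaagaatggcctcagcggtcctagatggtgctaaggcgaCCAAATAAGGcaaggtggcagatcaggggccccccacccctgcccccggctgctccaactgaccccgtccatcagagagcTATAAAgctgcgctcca
Myl7 (chr11:5898733-5899032, minus strand): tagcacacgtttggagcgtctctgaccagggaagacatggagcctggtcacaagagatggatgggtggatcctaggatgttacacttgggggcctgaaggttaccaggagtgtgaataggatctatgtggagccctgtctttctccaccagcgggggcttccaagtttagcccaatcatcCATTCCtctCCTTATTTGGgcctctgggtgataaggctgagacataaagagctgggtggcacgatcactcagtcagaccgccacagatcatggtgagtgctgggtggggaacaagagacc
Ttn (chr2:76982498-76982797, minus strand): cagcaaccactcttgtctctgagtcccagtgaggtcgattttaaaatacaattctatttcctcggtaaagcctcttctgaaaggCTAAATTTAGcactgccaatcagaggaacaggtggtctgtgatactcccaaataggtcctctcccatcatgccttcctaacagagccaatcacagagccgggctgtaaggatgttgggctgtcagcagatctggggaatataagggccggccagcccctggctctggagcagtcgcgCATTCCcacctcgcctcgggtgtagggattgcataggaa
Myl3 holds a CArG box and a pair of M-CAT motifs, and Myl7 a CArG box and an M-CAT motif 3 bases apart. Actc1 holds a CArG box and TATAAA, and Ttn a MEF2 motif and an M-CAT motif. The TATAAA of Actc1, from base 34, and the M-CAT motif of Ttn, from base 12, lie after the RefSeq start. Of the 50 genes 42 had an entry, with 54 windows. A CArG box was found in 8 of the 54 windows (14.8%), in those of Acta1, Actc1, Ldb3, Myl3, Myl7, Myom1 and Nebl, against 1.63% of all 32851 promoters of the same length. GGAATG stood in 18 of the 54 (33.3%) against 14.7% of all, and the MEF2 motif in 4 (7.41%) against 3.19%. TATAAA stood in 9 (16.7%) against 13.6%, AGATAA in 9 (16.7%) against 11.2%, and CANNTG, the E-box, in 44 (81.5%) against 72.3%. Windows of the same gene can overlap: those of Ldb3 share a CArG box and those of Flnc an M-CAT motif. By gene, a CArG box was found in 7 of 42 (16.7%), against 1.81% of all symbols with a promoter. GGAATG was found in 17 of 42 genes (40.5%), against 16.6% of such symbols. Both strands were searched, TATAAA can overlap the MEF2 motif, and a match is a run of letters, not a bound site.

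Levels per kilobase of transcript set the genes in order within a group. Length was that of the longest annotated transcript of each symbol, whether or not the heart uses it, so the order depends on that choice. In ventricles Myl2, the ventricular regulatory light chain, stood first with a mean of 8889 CPM per kb in mutants and 8521 CPM per kb in WT, ahead of Actc1, the cardiac actin, with 6554 CPM per kb in mutants and 6272 CPM per kb in WT. The libraries of these genes did not overlap in either ventricle group. In cushions the pair could not be told apart: Actc1 had 3804 CPM per kb in mutants and 3492 CPM per kb in WT, Myl2 had 3397 CPM per kb in mutants and 3435 CPM per kb in WT, and their libraries overlapped. Myl7, the atrial regulatory light chain, came next in cushions with 1967 CPM per kb in mutants and 2063 CPM per kb in WT. At the low end, Xirp2, Neb, Mybpc2 and Tnnc2 had means under 1 CPM per kb in all 4 groups. Ttn, first by counts, had 161 CPM per kb in mutant cushions, 197 in WT cushions, 339 in mutant ventricles and 402 in WT ventricles.

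The comparison of cushion with ventricle asks how much of the muscle programme each tissue holds. In mutants 16 of the 49 genes were called lower and 1 higher in cushion, and in WT 18 were called lower and 1 higher. Of all symbols 9.42% were called in mutants, 3.26% as lower, and 23.1% were called in WT, 10.6% as lower. The median log2 fold change of the 49 genes was -0.66 in mutants and -0.59 in WT, against medians over all symbols of 0.01 in mutants and 0.01 in WT. The mutant and WT comparisons set different libraries against each other, but both tests take their spread from all libraries. Calls in both are therefore not independent. Called lower in both were 10 genes: Myh7b, Mybpc3, Mylk3, Myl2, Myl3, Tnnt1, Tnnt2, Tnni2, Tmod1 and Myoz2. With the replicate block, 33 were called lower and 2 higher in mutants (10.5% and 13.4% of all symbols), and 30 were called lower and 4 higher in WT (20.1% and 21.2%), with 29 lower in both. In 31 of the 49 genes all 4 cushion libraries lay below all 4 ventricle libraries, a pattern seen in 13.2% of all symbols, and in 1 gene they all lay above, as in 16.0% of all symbols.

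Single libraries carried many of these calls. Without the block, calls over all symbols also fell when each of the libraries named here was left out, so the drop is not particular to these genes. In mutants the count of called genes was 17, and it was 1 without mutant cushion replicate 1, 5 without mutant ventricle replicate 2 and 11 without WT ventricle replicate 2, which enters only through the shared spread. Without replicate 2 of the mutant cushion, the library unlike the others, it was 14. In WT the count was 19, and it was 6 and 7 without WT cushion replicate 1 or 2, and 8 and 5 without WT ventricle replicate 1 or 2. Among genes refitted by name, the calls that ended in this way were, in mutants without mutant cushion replicate 1, those of Myom2 (adjusted p = 0.0517), Myh7b (0.094), Tnnt1 (0.0861), Des (0.097), Acta1 (0.24), Myl2 (0.131) and Myl3 (0.0861). Acta1 also lost its call without mutant cushion replicate 2 (0.0896). Without mutant ventricle replicate 2 they were those of Des (0.0617), Acta1 (0.194), Myl2 (0.145) and Myl3 (0.056). Without WT ventricle replicate 1 or 2 they were those of Myl2 (0.0596 and 0.0653) and Acta1 (0.0605 and 0.07). In WT the call of Myh7b ended without WT cushion replicate 1 (0.0524) or WT ventricle replicate 2 (0.0704). Those of Myl2 (0.0544 to 0.136) and Myl3 (0.0602 to 0.14) ended without each of the 4 WT libraries in turn. Tnni2 kept its call at every such step in both genotypes, as did Nebl, Tmod1 and Myom2 in WT. With the block, the lowest count after leaving out any library was 26 in mutants, against 35 with all libraries. In WT it was 20 without WT cushion replicate 2 and 22 without WT ventricle replicate 1, against 34 with all libraries. In bulk tissue, fewer cardiomyocytes and less RNA per cardiomyocyte cannot be told apart. Of 14 cardiomyocyte genes outside the sarcomere, 4 were called lower in mutant cushions and 5 in WT cushions, with medians of -0.82 in mutants and -0.84 in WT, beside the 3.26% and 10.6% of all symbols called lower. Of 10 cushion mesenchyme markers, 5 were called in mutants and 6 in WT, each of them higher in cushion, where 9.42% and 23.1% of all symbols were called in either direction. The part of tissue makeup in the result was not tested.

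**Figure D1:**
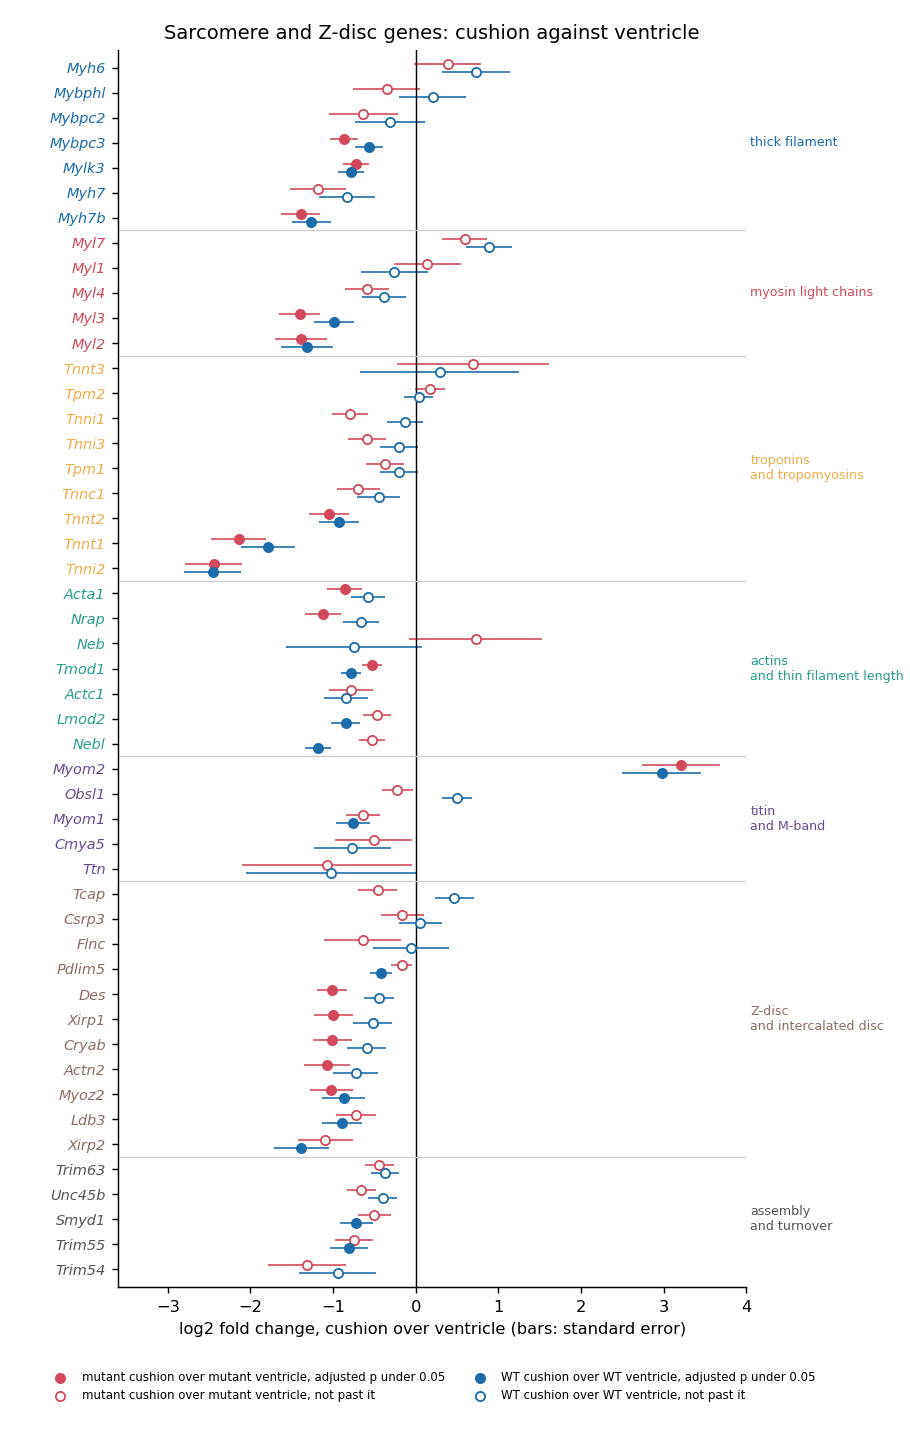
Log2 fold change of cushion over ventricle for the 49 tested genes in mutants (red) and WT (blue), grouped by role, with bars for the standard error and filled points for adjusted p under 0.05. Most points lie left of 0 in both genotypes, Myom2 lies at 3.21 in mutants and 2.98 in WT, and Tnni2 and Tnnt1 lie farthest to the left.

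Among thick filament genes, 3 of 7 were called lower in cushions of either genotype, namely Mybpc3 (cardiac myosin-binding protein C), Mylk3 (the cardiac myosin light chain kinase) and Myh7b, and the block added Myh7 in both. Myh7b, a slow-type myosin heavy chain, had 10.4 and 13.7 CPM in mutant cushions, 14.0 and 17.1 in WT cushions, 24.7 and 38.7 in mutant ventricles, and 36.1 and 38.8 in WT ventricles. All cushion libraries lay below all ventricle libraries, and its log2 fold change was -1.39 ± 0.24 in mutants (edgeR, adjusted p = 0.0109) and -1.27 ± 0.24 in WT (adjusted p = 0.00814). Myh7, the beta heavy chain of the embryonic mouse ventricle, had 4678 and 3725 CPM in mutant cushions, 5967 and 3767 in WT cushions, 10765 and 8345 in mutant ventricles, and 11267 and 6069.9 in WT ventricles. Its libraries did not overlap either. Its log2 fold change was -1.19 ± 0.34 in mutants (edgeR, adjusted p = 0.0666, or 0.000221 with the block) and -0.83 ± 0.34 in WT (0.108, or 0.00223 with the block), and DESeq2 called it in both, with adjusted p-values of 0.00148 in mutants and 0.028 in WT. Myh6, the alpha heavy chain, is the main heavy chain of embryonic atria. It had 1741 and 1813 CPM in mutant cushions, 1846 and 2782 in WT cushions, 1706 and 1012 in mutant ventricles, and 1916 and 876 in WT ventricles, so that the tissues overlapped, and it was not called in either genotype (adjusted p = 0.624 in mutants and 0.238 in WT). Mybphl, a relative of myosin-binding protein H, had 7.75 to 21.1 CPM over all libraries and, like the fast skeletal Mybpc2, was called in neither genotype nor fit.

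Of the 5 light chains Myl2 and Myl3 were called lower in cushions of both genotypes. Myl2 had 2074 and 3965 CPM in mutant cushions, 3374 and 2733 in WT cushions, 6746 and 9059 in mutant ventricles, and 6839 and 8311 in WT ventricles. It fell in cushions by 1.39 ± 0.31 on the log2 scale in mutants (edgeR, adjusted p = 0.0303) and by 1.31 ± 0.31 in WT (adjusted p = 0.0209). Myl3, the ventricular essential light chain, had 438 and 641 CPM in mutant cushions, 582 and 559.6 in WT cushions, 1128 and 1730.5 in mutant ventricles, and 1059 and 1204 in WT ventricles, and it fell by 1.40 ± 0.25 in mutants (adjusted p = 0.0119) and by 0.99 ± 0.24 in WT (adjusted p = 0.023). Every ventricle library of both genes lay above every cushion library. Myl4, the essential light chain of atria and of the early heart, had 887 and 1393 CPM in mutant cushions, 980.3 and 1366 in WT cushions, 1430.1 and 2009.8 in mutant ventricles, and 1464 and 1589 in WT ventricles, and its lower level in cushions was called with the block (adjusted p = 0.00743 in mutants and 0.0376 in WT). Myl7 had the opposite order, with 1123 and 1198 CPM in mutant cushions, 849 and 1586 in WT cushions, 662 and 877 in mutant ventricles, and 633 and 683 in WT ventricles. Its log2 fold change was 0.59 ± 0.28 in mutants (adjusted p = 0.228, or 0.0234 with the block) and 0.89 ± 0.28 in WT (0.0506, or 0.00261 with the block). In WT it was also called by DESeq2 (adjusted p = 0.00934) and by edgeR with the largest symbols outside the totals (0.0491). Myl1, the essential light chain of fast skeletal muscle, had 41.9 and 88.6 CPM in mutant cushions and 40.5 to 76.7 CPM in the other 6 libraries.

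Of the 9 tested troponin and tropomyosin genes, Tnni2, Tnnt1 and Tnnt2 were called lower in cushions of both genotypes. With the block 6 were called lower in mutants and 4 in WT. Tnni2, fast skeletal troponin I, had 6.03 and 9.99 CPM in mutant cushions, 3.90 and 7.60 in WT cushions, 40.4 and 47.2 in mutant ventricles, and 28.4 and 35.2 in WT ventricles. The lowest ventricle library lay well above the highest cushion library, and Tnni2 was 5.47-fold lower in mutant cushions and 5.54-fold lower in WT cushions by group means, with log2 fold changes of -2.45 ± 0.34 (edgeR, adjusted p = 0.00681) and -2.46 ± 0.35 (adjusted p = 0.00387). Tnnt1, slow skeletal troponin T, had 54.8 and 82.2 CPM in mutant cushions, 65.4 and 75.7 in WT cushions, 209.5 and 396 in mutant ventricles, and 218 and 269.8 in WT ventricles. It fell by 2.14 ± 0.33 in mutants (adjusted p = 0.0109) and by 1.79 ± 0.33 in WT (adjusted p = 0.0106). Cardiac troponin T, Tnnt2, was called lower by 1.05 ± 0.24 in mutants and by 0.93 ± 0.24 in WT. It had 901 and 1147 CPM in mutant cushions, 893 and 1237 in WT cushions, 1744 and 2486 in mutant ventricles, and 1868 and 2182 in WT ventricles. Among the inhibitory subunits of the embryonic heart, Tnni1, the slow skeletal and fetal form, had 711 and 895 CPM in mutant cushions, 908 and 1118 in WT cushions, 1128 and 1655 in mutant ventricles, and 1048 and 1173 in WT ventricles. Tnni3, the cardiac form, had 249 and 349 CPM in mutant cushions, 289.8 and 367 in WT cushions, 363 and 538 in mutant ventricles, and 368 and 388 in WT ventricles. Both were called lower with the block in mutants (edgeR, adjusted p = 0.000708 for Tnni1 and 0.00475 for Tnni3), where DESeq2 also called Tnni1 (adjusted p = 0.00697). In WT neither was called with or without the block. With a correction for GC content and length added to the block, Tnni3 was called lower in WT (-0.36, edgeR, adjusted p = 0.0138). The difference between the genotypes was not called for either gene. The tropomyosin genes stayed uncalled in both fits. Tpm2 had 41.9 and 35.9 CPM in mutant cushions, 32.3 and 44.2 in WT cushions, 31.7 and 37.2 in mutant ventricles, and 37.4 and 37.2 in WT ventricles, with a log2 fold change of 0.17 ± 0.18 in mutants and 0.04 ± 0.18 in WT.

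Of the 7 genes for actins and for thin filament length, 3 were called lower in each genotype, Acta1, Nrap and Tmod1 in mutants and Lmod2, Nebl and Tmod1 in WT, and with the block all but Neb were called lower in both. Actc1 had 4217 and 6989 CPM in mutant cushions, 4747 and 5539.6 in WT cushions, 8549 and 10758 in mutant ventricles, and 8373 and 10106 in WT ventricles, a log2 fold change of -0.78 ± 0.27 in mutants (edgeR, adjusted p = 0.106, or 0.00299 with the block) and of -0.85 ± 0.27 in WT (0.0509, or 0.00147 with the block). DESeq2 called Actc1 in both, with adjusted p-values of 0.019 in mutants and 0.00628 in WT. Acta1, skeletal alpha-actin, was far scarcer, with 52.6 and 58.0 CPM in mutant cushions, 55.3 and 67.9 in WT cushions, 78.9 and 122 in mutant ventricles, and 85.6 and 98.6 in WT ventricles. Its log2 fold change was -0.86 ± 0.21 in mutants (adjusted p = 0.0384) and -0.58 ± 0.21 in WT (0.0767, or 0.00201 with the block). Tmod1, which caps the pointed end of the thin filament, had 196 and 214 CPM in mutant cushions, 192 and 196 in WT cushions, 302 and 292 in mutant ventricles, and 323 and 344 in WT ventricles, and it fell by 0.53 ± 0.12 in mutants (adjusted p = 0.0325) and by 0.78 ± 0.12 in WT (adjusted p = 0.00424). Its libraries lay close together within each group. Nebl, which encodes nebulette, the cardiac Z-disc relative of nebulin, had 245 and 282 CPM in mutant cushions, 185 and 199 in WT cushions, 422 and 340.5 in mutant ventricles, and 455 and 415 in WT ventricles, with -0.53 ± 0.15 in mutants (adjusted p = 0.0663, or 0.00962 with the block) and -1.18 ± 0.16 in WT (adjusted p = 0.00216). Lmod2, which lengthens thin filaments, had 64.1 and 85.0 CPM in mutant cushions, 56.5 and 66.8 in WT cushions, 93.8 and 113 in mutant ventricles, and 107 and 115 in WT ventricles. Nrap, a scaffold of myofibril assembly, had 66.6 and 105 CPM in mutant cushions, 119.8 and 106 in WT cushions, 166 and 207 in mutant ventricles, and 186 and 173 in WT ventricles. In both genes all cushion libraries lay below all ventricle libraries.

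Myom2, which encodes the M-band crosslinker M-protein, was the only 1 of the 49 genes called higher in cushion by the edgeR fit without the block, beside the WT calls of Myl7 under other settings given above. It had 23.2 and 15.2 CPM in mutant cushions, 12.4 and 15.3 in WT cushions, 2.82 and 1.29 in mutant ventricles, and 2.51 and 1.003 in WT ventricles. The tissues did not overlap, and the log2 fold change was 3.21 ± 0.47 in mutants (edgeR, adjusted p = 0.00863) and 2.98 ± 0.48 in WT (adjusted p = 0.00658). The mutant call ended without mutant cushion replicate 1, with an adjusted p of 0.0517 at a log2 fold change of 2.88. Myom1, which encodes myomesin, the other M-band crosslinker on the list, went the other way, called lower in WT by 0.76 ± 0.21 and in mutants by edgeR with the block (-0.65, adjusted p = 0.011) and by DESeq2 (adjusted p = 0.0293). Obsl1, an obscurin-like protein that binds titin and myomesin, had 113 and 96.3 CPM in mutant cushions, 134 and 165 in WT cushions, 112 and 132 in mutant ventricles, and 121 and 90.7 in WT ventricles. It was called higher with the block in WT alone (0.50, adjusted p = 0.0292), and with a correction for GC content and length added the value turned to -0.16.

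At the Z-disc and intercalated disc, 5 of 11 genes were called lower in mutant cushions (Actn2, Cryab, Des, Myoz2 and Xirp1) and 4 in WT cushions (Ldb3, Myoz2, Pdlim5 and Xirp2). With the block these counts were 8 in mutants and 7 in WT, beside Tcap called higher in WT. Des, which encodes the intermediate filament protein desmin, had 177 and 228 CPM in mutant cushions, 232 and 288 in WT cushions, 381 and 439 in mutant ventricles, and 373 and 334 in WT ventricles, and fell by 1.02 ± 0.18 in mutants (edgeR, adjusted p = 0.0118), while in WT the value of -0.44 ± 0.18 was called with the block (adjusted p = 0.0141). Ldb3, a PDZ-LIM protein that binds alpha-actinin, had 208 and 206 CPM in mutant cushions, 219 and 199.8 in WT cushions, 421 and 259 in mutant ventricles, and 457 and 324 in WT ventricles. Pdlim5, another of this family, had 271 and 314 CPM in mutant cushions, 257 and 264 in WT cushions, 326 and 333 in mutant ventricles, and 342 and 354 in WT ventricles, a difference of -0.17 ± 0.13 in mutants (adjusted p = 0.475) and -0.42 ± 0.13 in WT (adjusted p = 0.0493). All cushion libraries lay below all ventricle libraries in Des, Ldb3 and Pdlim5. Tcap, telethonin, which binds the Z-disc end of titin, had 20.6 and 27.5 CPM in mutant cushions, 31.1 and 37.4 in WT cushions, 25.5 and 40.7 in mutant ventricles, and 24.2 and 25.4 in WT ventricles. With the block it was called lower in mutant cushions (-0.45, adjusted p = 0.0391) and higher in WT cushions (0.45, adjusted p = 0.0233), and these values were not called different from each other (adjusted p = 0.0852 with the block). Cryab, the small heat shock protein alpha-B-crystallin that binds desmin, had 73.9 and 90.8 CPM in mutant cushions, 88.1 and 118 in WT cushions, 131 and 200.3 in mutant ventricles, and 140 and 171 in WT ventricles. It was called in mutants at -1.01 ± 0.24 and in WT by edgeR with the block (adjusted p = 0.000866). Actn2, the alpha-actinin that crosslinks thin filaments at the Z-disc, had 329 and 378 CPM in mutant cushions, 503 and 400.5 in WT cushions, 853 and 637 in mutant ventricles, and 951 and 542 in WT ventricles, and was called at -1.08 ± 0.28 in mutants, and in WT by edgeR with the block (adjusted p = 0.0134) and by DESeq2 (adjusted p = 0.0332). Cushions and ventricles did not overlap in either gene. Flnc (filamin C) and Csrp3 (muscle LIM protein) were called in neither genotype or fit.

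Of the 5 genes of assembly and turnover, 0 were called in mutants by edgeR, where 5 had an unadjusted p under 0.05 (25.0% of all symbols) and DESeq2 called 2, and 2 were called lower in WT, Smyd1 (a methyltransferase needed for myofibril assembly) and Trim55 (a muscle RING finger ubiquitin ligase). With the block all 5, including the myosin chaperone gene Unc45b and the ligase genes Trim54 and Trim63, were called lower in both genotypes. Their block log2 fold changes lay between -1.30 and -0.43 in mutants and between -0.99 and -0.37 in WT.

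Levels per length of paired isoforms were compared as ratios, as a description with no test, since each ratio joins values already given. Length was that of the longest annotated transcript, 3273 bases for Myl4 against 1125 for Myl3, and 1059 for Tnnt1 against 3330 for Tnnt2. The size of a ratio, and whether it lies above 1, depends on these lengths. The order of the libraries within a ratio does not. Myh6 over Myh7 was 0.379 and 0.496 in mutant cushions, 0.315 and 0.753 in WT cushions, 0.161 and 0.124 in mutant ventricles, and 0.173 and 0.147 in WT ventricles. Myl7 over Myl2 was 0.816 and 0.455 in mutant cushions, 0.379 and 0.874 in WT cushions, 0.148 and 0.146 in mutant ventricles, and 0.139 and 0.124 in WT ventricles. In both ratios every cushion library lay above every ventricle library, and the cushion libraries were widely spread. Myl4 over Myl3 lay between 0.579 and 0.839 in cushions and between 0.399 and 0.475 in ventricles. The skeletal over cardiac or slow troponin ratios ran the other way: Tnnt1 over Tnnt2 lay between 0.191 and 0.230 in cushions and between 0.367 and 0.5003 in ventricles, and Tnni2 over Tnni1 between 0.0103 and 0.0269 in cushions and between 0.0653 and 0.0862 in ventricles. Tnni1 over Tnni3 overlapped between tissues, from 1.09 to 1.33 in cushions and from 1.21 to 1.32 in ventricles, as did Actc1 over Acta1, from 78.7 to 118 in cushions and from 86.7 to 106 in ventricles. Between genotypes, Tnni1 over Tnni3 was lower in both mutant cushions (1.21 and 1.09) than in both WT cushions (1.33 and 1.29) and higher in both mutant ventricles (1.32 and 1.30) than in both WT ventricles (1.21 and 1.28). Each of the other 6 ratios overlapped between genotypes in at least 1 tissue. The genotypes also lay apart for Tnni2 over Tnni1 in cushions, and for Myl7 over Myl2 and Myl4 over Myl3 in ventricles. Such an order is common with 2 libraries a group. Of all symbols, 24.5% lay higher and 23.9% lower in both mutant cushions, and 13.1% higher and 14.6% lower in both mutant ventricles. Myh6 and Myh7, and likewise Actc1 and Acta1, are near-identical in long stretches, so reads could be split between them. Of the 50 genes 17 share exon bases with a gene on the opposite strand in GENCODE vM21, among them Myh7 with Mhrt, Ttn with Gm13938, Cryab with Hspb2 and Myl2 with Ccdc63. Whether the counting used strand is not given in the sources used here, so reads from such partners may not be told apart.

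**Figure D2:**
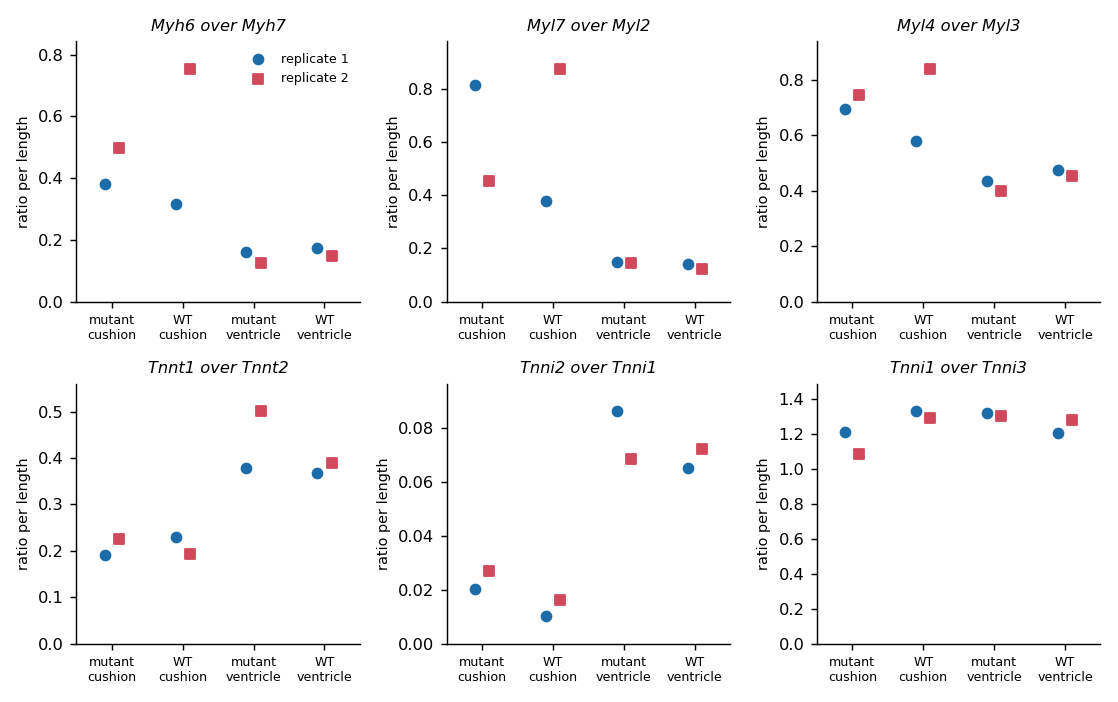
Ratios of CPM per length for 6 isoform pairs, with 1 point per library, circles for replicate 1 and squares for replicate 2. Myh6 over Myh7, Myl7 over Myl2 and Myl4 over Myl3 are higher in all 4 cushions, Tnnt1 over Tnnt2 and Tnni2 over Tnni1 are higher in all 4 ventricles, and Tnni1 over Tnni3 overlaps.

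The comparison of mutant with WT asks whether the genes respond to the genotype, which differs in Klf2 and may differ in Nfatc1. In cushions 0 of the 49 genes were called by edgeR, as were 0.0% of all symbols in either direction. At an unadjusted p under 0.05 stood 2 of the 49 (4.08%), against 11.4% of all symbols. With the block 0 were called (0.295% of all symbols higher and 0.569% lower), with 11 (22.4%) under an unadjusted 0.05 against 23.8% of all symbols, and DESeq2 also called 0. The median log2 fold change was -0.06, against -0.01 over all symbols, and the groups overlapped in 35 of the 49 genes, with 3 higher in both mutant libraries (24.5% of all symbols) and 11 lower in both (23.9%). Without replicate 2 of the mutant cushion 0 were called and the median was -0.29.

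Nebl had the smallest p in cushions. Both mutant cushion libraries (245 and 282 CPM) lay above both WT cushion libraries (185 and 199 CPM), with a log2 fold change of 0.46 ± 0.15 (edgeR, adjusted p = 0.435, or 0.0866 with the block), while in ventricles the value was -0.19 ± 0.15. The next was Obsl1, lower in both mutant cushions at -0.52 ± 0.19 (adjusted p = 0.435, or 0.104 with the block) and at 0.20 ± 0.19 in ventricles. The 4 smallest p-values among negative changes also took in Tcap, Des and Nrap at -0.51 ± 0.24, -0.36 ± 0.18 and -0.39 ± 0.22, and those among positive changes Neb, Lmod2 and Tnni2, of which Lmod2 stood at 0.27 ± 0.17 and Tnni2 at 0.47 ± 0.35, all with adjusted p-values of at least 0.445. Neb, which encodes nebulin, the giant thin filament protein best known from skeletal muscle, had the largest value, 1.25 ± 0.82 (adjusted p = 0.546), and it rested on a single library: 6.77 and 31.2 CPM in mutant cushions against 9.44 and 6.57 CPM in WT cushions, and 16.3 and 6.65 CPM in mutant ventricles against 18.5 and 8.34 CPM in WT ventricles. Without mutant cushion replicate 2 the log2 fold change of Neb was -0.24. The same library had the highest cushion level of Tnnt3, fast skeletal troponin T (12.6 CPM, against 1.55 to 6.49 CPM in the other 7), of Myl1 and of Myh3. The part of skeletal muscle RNA in these values was not tested.

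In ventricles 0 of the 49 genes were called by edgeR (0.0% of all symbols in either direction), 0 had an unadjusted p under 0.05 against 2.29% of all symbols, and DESeq2 called 0. With the block 0 were called (0.0% of all symbols higher and 0.00669% lower), and 3 genes had an unadjusted p under 0.05, against 7.28% of all symbols. The median log2 fold change was 0.07, and 6 genes were higher in both mutant libraries (13.1% of all symbols) and 2 lower in both (14.6%). Among positive changes the smallest p-values belonged to Tcap at 0.41 ± 0.24, Tnni1 at 0.33 ± 0.22, Tnni2 at 0.46 ± 0.32 and Myl3 at 0.34 ± 0.24, and among negative ones to Tmod1 at -0.17 ± 0.12, Nebl at -0.19 ± 0.15, Myh7b at -0.24 ± 0.23 and Ldb3 at -0.20 ± 0.24, each with an adjusted p of 0.998 in edgeR. The interaction, the cushion difference minus the ventricle difference, was called for 0 genes by edgeR (0.0% of all symbols in either direction), with 4 under an unadjusted 0.05 (Nebl at 0.65 ± 0.22, Obsl1 at -0.72 ± 0.26, Tcap at -0.92 ± 0.33 and Des at -0.57 ± 0.25), against 11.9% of all symbols. It was called for 0 with the block (0.0% of all symbols in either direction), where 8 stood under an unadjusted 0.05 against 24.1% of all symbols, and for 0 by DESeq2. Lmod2 at 0.38 ± 0.24, Tmod1 at 0.25 ± 0.18 and Pdlim5 at 0.25 ± 0.18 completed the 4 smallest p-values among positive values, and Tnni1 at -0.66 ± 0.31 those among negative ones. At 2 libraries a group the standard errors of single genes in cushions ran from 0.12 to 1.02 on the log2 scale. Differences larger than their standard error also went uncalled, as for Nebl at 0.46 ± 0.15 in cushions. The lack of calls therefore does not exclude changes of that size.

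**Figure D3:**
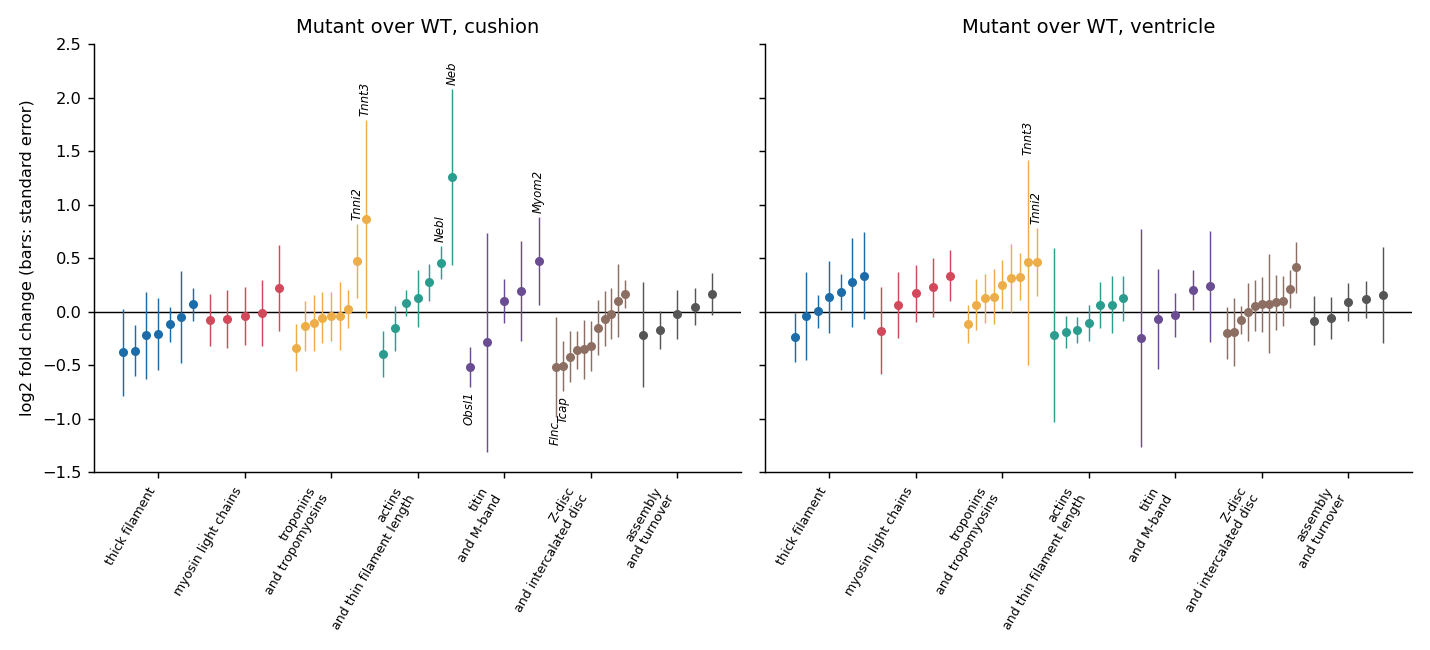
Log2 fold change of mutant over WT in cushion (left) and ventricle (right) for the 49 tested genes, grouped by role, with bars for the standard error. No gene was called, and the widest bars belong to Ttn, Tnnt3 and Neb.

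These genotype values moved with base composition. Across the 49 genes the log2 fold change of mutant over WT had a Spearman correlation with transcript GC content of -0.615 in cushions and 0.484 in ventricles. Over 14762 symbols it was -0.607 in cushions and 0.457 in ventricles, so on GC content the genes followed the whole table. With transcript length the correlation in ventricles was -0.564 over the 49 genes and -0.536 without Ttn, against -0.19 over all symbols. In cushions it was -0.0602 over the 49 genes and 0.00133 over all symbols. All of these are descriptions over genes that share libraries. With the block and GC and length terms the medians of the 49 genes were 0.04 in cushions and 0.01 in ventricles, and the calls stayed at 0.

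Ttn, the largest transcript of the set at 106824 bases, took a different share of each library by replicate number. It had 20220.3 and 14264 CPM in mutant cushions, 29509.5 and 12546 in WT cushions, 61899 and 10596 in mutant ventricles, and 70715 and 15178 in WT ventricles. Replicate 1 lay above replicate 2 in all 4 groups, by 1.42 times in mutant cushions, 2.35 times in WT cushions, 5.84 times in mutant ventricles and 4.66 times in WT ventricles. In replicate 1 Ttn was higher in ventricles than in cushions, whereas in replicate 2 the mutant ventricle had less than the mutant cushion and the WT libraries lay close together. Since Ttn was singled out for this swing, it is given with no test. It made up 44.0% and 30.02% of the counts of the 50 genes in mutant cushions, 49.4% and 28.1% in WT cushions, 56.0% and 16.3% in mutant ventricles, and 58.6% and 24.5% in WT ventricles. A second Ttn row, with 88.8% to 89.9% of the counts of the larger row, followed it in every library. Rows of 1 symbol may count the same reads, so this row is no separate measurement.

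The swing left the tissue and genotype contrasts of Ttn wide. Its log2 fold change was -1.07 ± 1.03 for mutant cushion over mutant ventricle (edgeR, adjusted p = 0.591) and -1.03 ± 1.03 for WT cushion over WT ventricle (adjusted p = 0.509). For mutant over WT it was -0.29 ± 1.02 in cushions (adjusted p = 0.925) and -0.24 ± 1.02 in ventricles (adjusted p = 0.998). With the block and the correction for GC content and length, for which 3 tested symbols had transcripts over 50 kb, it was called lower in cushions of both genotypes, at -0.60 in mutants (adjusted p = 0.0176) and -0.88 in WT (adjusted p = 0.00152). Leaving out mutant ventricle replicate 1 turned the mutant value to 0.67, and leaving out WT ventricle replicate 1 turned the WT value to 0.47. Without Ttn the other 49 genes took 2.58% and 3.45% of counts in mutant cushions, 3.03% and 3.52% in WT cushions, 4.48% and 5.61% in mutant ventricles, and 4.57% and 4.67% in WT ventricles.

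**Figure D4:**
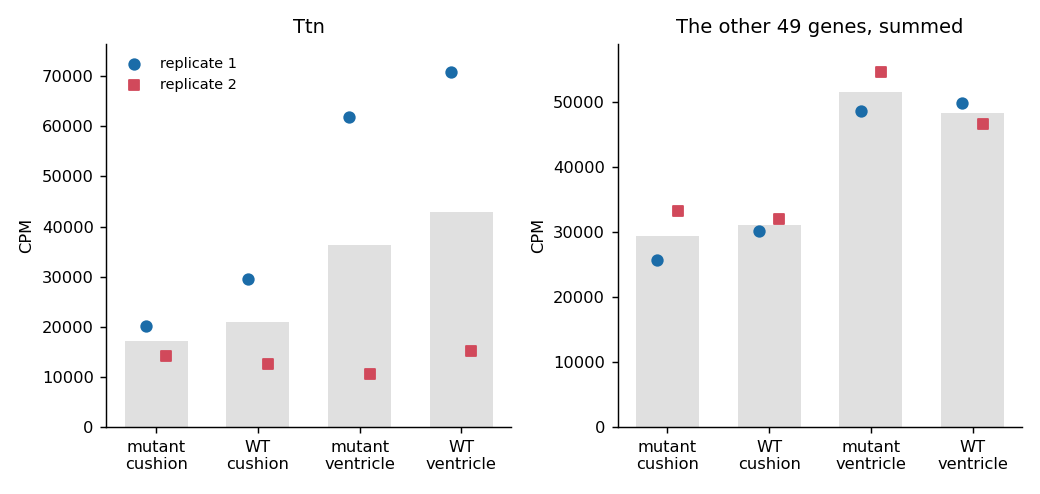
CPM of Ttn (left) and of the other 49 genes summed (right) in each library, with circles for replicate 1, squares for replicate 2 and bars for the mean of the 2 libraries. Ttn is higher in replicate 1 of every group and reaches 70715 CPM in WT ventricle replicate 1, while the other genes separate cushion from ventricle in both replicates.

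To see how the other genes behaved, replicate 1 was set against replicate 2 through the replicate term of the paired fit. Of the 48 tested genes other than Ttn, 2 were called higher in replicate 1 (Myh7 and Flnc) and 19 lower, against 11.4% of all symbols higher and 4.07% lower. Their median was -0.28, against -0.03 over all symbols. Myh7 stood at 0.56 ± 0.12 (edgeR, adjusted p = 0.00654) and Flnc at 0.71 ± 0.15 (adjusted p = 0.0108), and replicate 1 lay above replicate 2 in 4 of 4 groups for both. DESeq2 called Flnc (adjusted p = 0.015) and not Myh7 (adjusted p = 0.129). Flnc had 347 and 264 CPM in mutant cushions, 492 and 382 in WT cushions, 602 and 353 in mutant ventricles, and 649 and 259 in WT ventricles. Lower in replicate 1 were 7 of 9 tested troponin and tropomyosin genes, 2 of 5 light chains and 3 of 5 assembly genes, among them Trim54 at -0.77 ± 0.21, Myl1 at -0.60 ± 0.14 and Tnnt1 at -0.51 ± 0.11. Actc1 was also lower, at -0.39 ± 0.12. Replicate 1 lay below replicate 2 in all 4 groups in 24 of the 48 genes (17.1% of all symbols) and above it in Myh7, Ldb3 and Flnc (19.1% of all symbols). Calls fell, among these genes and over all symbols alike, when any 1 WT library or mutant ventricle library was left out. Leaving out single libraries moved the count of 21 called genes to 8 without WT cushion replicate 1 or 2, to 7 and 9 without mutant ventricle replicate 1 or 2, and to 14 and 12 without WT ventricle replicate 1 or 2. Myh7 lost its call without any 1 of the 4 WT libraries, and Flnc without either mutant ventricle.

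The replicate difference went with transcript length. The 17 genes with transcripts under 2 kb were all lower in replicate 1, with a median of -0.39 and a range from -1.38 to -0.25. The 16 genes of 2 to 5 kb had a median of -0.25, and the 11 genes of 5 to 9 kb a median of 0.04. The 5 genes over 9 kb, Ttn, Neb, Xirp2, Cmya5 and Flnc, had a median of 0.45, all above 0. Within single groups the order was mixed for Neb, Cmya5 and Xirp2. Replicate 1 over replicate 2 was 0.217 for Neb in mutant cushions, and for Cmya5 0.798 in mutant and 0.911 in WT cushions. Xirp2 had 2.65 and 3.69 CPM in mutant cushions. In every other group of these genes replicate 1 lay above replicate 2. Over all symbols the medians in the same length bins were -0.15, -0.04, 0.15 and 0.41, and over 9 kb 492 of 555 symbols lay above 0. The Spearman correlation of the replicate difference with length was 0.751 over the 49 genes, 0.735 without Ttn, and 0.435 over 14762 symbols, each a description over genes that share the same 8 libraries. Other RNAs moved with the replicate number too: 6 of 6 erythroid genes were called higher in replicate 1, with a median of 1.52, and 8 of 10 cushion mesenchyme genes, with a median of 0.95. With GC and length terms the titin and M-band genes lay between -0.31 and 0.34. Ttn was itself among the symbols these terms were fitted to, and 3 tested symbols had transcripts over 50 kb. Its corrected value is therefore no test of length. The part of RNA quality, blood or dissection in the replicate difference was not tested.

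**Figure D5:**
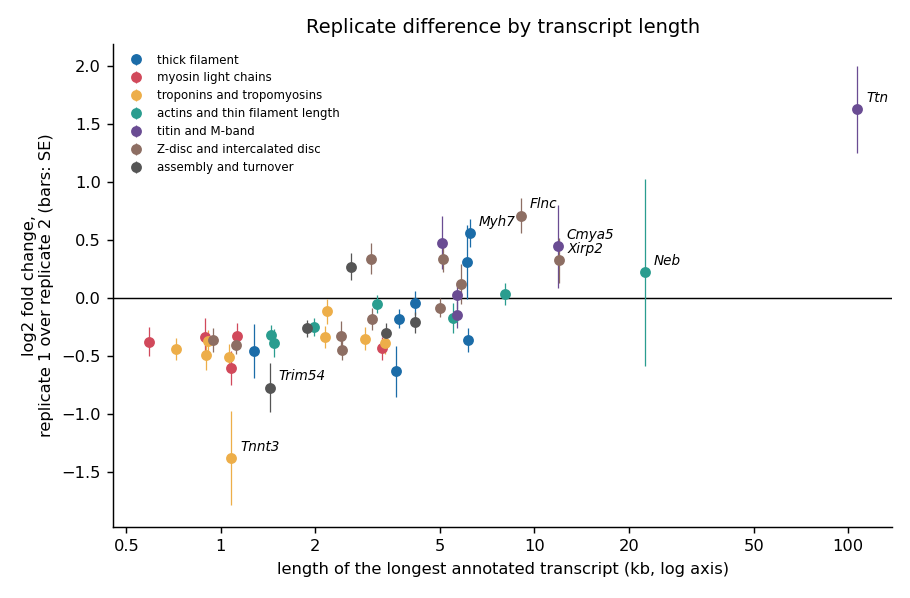
Log2 fold change of replicate 1 over replicate 2 against the length of the longest annotated transcript (kb, log axis) for the 49 tested genes, with bars for the standard error and colours for role. Genes under 2 kb lie below 0, genes over 9 kb lie above 0, and Ttn lies at 1.63.

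Of 48 further genes linked to the sarcomere 45 were tested. In mutants 12 were called lower and 3 higher in cushion, and in WT 9 were called lower and 5 higher, with medians of -0.50 in mutants and -0.27 in WT. Of all symbols 3.26% were called lower in mutants, of 9.42% called in either direction, and 10.6% in WT, of 23.1%. Pdlim3, an alpha-actinin-associated LIM protein, was higher in cushions of both genotypes at 2.11 ± 0.25 in mutants (edgeR, adjusted p = 0.003) and 2.10 ± 0.25 in WT (adjusted p = 0.00165). Tpm4, a tropomyosin of non-muscle and early heart cells, and Lmod1, the smooth muscle leiomodin, were next in mutants at 0.82 ± 0.15 and 1.85 ± 0.39, and Pdlim7 and Tpm3 in WT at 0.82 ± 0.17 and 0.40 ± 0.12. The lowest p-values among lower genes belonged in mutants to Alpk3 at -0.92 ± 0.15, Kbtbd10 at -1.06 ± 0.18 and Fhod3, a formin of the sarcomere, at -0.83 ± 0.18, and in WT to Nexn, which encodes the Z-disc protein nexilin, at -1.56 ± 0.15, Klhl31 at -1.52 ± 0.18 and Lmod3 at -1.63 ± 0.27. Between genotypes 0 of the 45 were called by edgeR in cushions, with 5 at an unadjusted p under 0.05 (11.4% of all symbols), and 0 in ventricles, with 1 (2.29% of all symbols), and DESeq2 called 0 of the 48 in cushions. With the block 1 was called in cushions (0.295% of all symbols were called higher), named here after its values were seen: Mybpc1 (slow skeletal myosin-binding protein C) was higher in mutants at an adjusted p of 0.00481, with 17.4 and 3.08 CPM in mutant cushions against 2.58 and 0.950 CPM in WT cushions.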

How the data were processed

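RNA-seq counts were deposited as 1 table, repeated with the same content in 8 files. The deposited values are whole-number counts per row, with no normalization. Reads were aligned with Bowtie 0.12.7 to mm9, per the submitters' processing notes, while the sources used here give no counter, annotation or strand setting. Of 28644 rows, 1 per symbol was kept (22869 symbols). Counts were scaled by TMM, filtered with filterByExpr and tested in 1 edgeR 4.0.16 quasi-likelihood fit of 4 groups (R 4.3.3, limma 3.58.1), with Benjamini-Hochberg adjustment and a prior count of 2. Folds of group means come from CPM. DESeq2 1.42.0 was an alternative. The tested symbols held 99.97% of counts, and 1 CPM equals at least 18.71 reads. Replicate numbers were taken as pairing the samples: over 14940 genes the deviations of same-numbered libraries correlated between groups at 0.341 to 0.522 in all 6 pairs of groups. What the number marks is not stated in the labels. Transcript length and GC content came from GENCODE vM21, with values for 98.3% of symbols, and promoters from RefSeq (GRCm38.p6). The GC and length correction used splines with 4 degrees of freedom. Named genes were, per comparison, the 4 with the smallest p in each direction, beside the isoform pairs and Ttn; Actn2, Cryab, Flnc, Myl1, Tnnt2 and Tnnt3 were added after their values were seen. The members and lists were chosen with earlier results of these data known. The fits were tested on simulated data. These held no replicate effect, no tissue difference and no GC or length trend, so they do not show how the fits handle such effects.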

Additional observations from a re-analysis of the deposited data

How the results depend on the processing

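Alternatives were the replicate block alone or with a GC and length correction, RLE scaling, the largest symbols outside the totals, no filter, summed rows, only the groups compared, DESeq2 and leaving out each library; the cause of changes was not tested. Mutant over WT kept 0 called members throughout. All-symbol calls in cushions numbered 129 with the block, 72 with block and correction, 5 with no filter, 1 with only the groups compared, 22 with DESeq2 and 0 to 1 leaving out 1 library. In ventricles they numbered 1 with the block, with the correction, with only the groups compared and with DESeq2, and 0 to 1 leaving out 1 library. The member median ran from -0.29 to 0.11 in cushions, -0.035 to 0.25 in ventricles and -0.40 to 0.066 for the interaction leaving out 1 library, and the interaction median was 0.038 with block and correction. In mutant tissue, 35 members were called with the block, 39 with the correction, 8 with only the groups compared, 26 with DESeq2 and 1 to 15 leaving out 1 library. All-symbol calls there were 3572, 4700, 641 (only the groups compared) and 309 to 1301, and the median ran from -0.90 to -0.47. In WT tissue, members called were 34 with the block, 36 with the correction and 5 to 19 leaving out 1 library. All-symbol calls there were 6180, 6108 and 739 to 3498, and the median was -0.83 with the correction and -0.67 to -0.45 leaving out 1 library. With the block, a fit by library left out that was chosen after seeing the data, counts ran from 26 to 36 in mutants and 20 to 36 in WT. For the replicate difference, leaving out 1 library gave 9 to 26 members, Ttn included, 1339 to 2542 symbols and medians of -0.31 to -0.23. With rows summed, members took 6.94% of counts in mutant cushions, 7.84% in WT cushions and 11.6% in mutant ventricles. Rows of 1 symbol may count the same reads. Signs turned for Ttn in the interaction (0.23 with the block, 0.28 with the correction) and in mutant over WT cushions (0.047 with the correction), and for Obsl1 in WT tissue (-0.16 with the correction). Leaving out 1 library, mutant over WT ran from -0.24 to 1.97 for Neb and -0.78 to 0.44 for Ttn in cushions, and in ventricles from -2.02 to 1.28 for Ttn, -0.0035 to 0.62 for Myl3, -0.60 to 0.056 for Myh7b and -0.59 to 0.11 for Ldb3. The Ttn interaction ran from -1.58 to 1.73, Ttn in mutant tissue from -1.85 to 0.67, Ttn in WT tissue from -1.79 to 0.47 and Tnni1 in WT tissue from -0.29 to 0.005. Tnnc2 fell under the filter on low counts.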
